A study of Sus scrofa with 34 samples.

Results

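The genes described here encode surface and effector proteins of T cells and cytotoxic lymphocytes. They are the CD3 chains CD3D, CD3E, CD3G and CD247, the adhesion receptor CD2, the coreceptors CD4, CD8A and CD8B, and the effector proteins PRF1 and GZMB. They were matched to the ileum and liver count tables by their pig gene symbols. Of these 10 genes, 8 had a row among the 25880 genes of the count tables. CD3G and GZMB were matched to no row and are not analysed here.

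T cells recognize antigen through a receptor whose variable chains carry no signal of their own. The CD3 chains and CD247, the zeta chain, bring that signal into the cell. CD4 and CD8 bind the MHC molecules of the presenting cell and sort T cells into helper and cytotoxic lines. Cytotoxic T cells and natural killer cells kill by releasing perforin, the pore former encoded by PRF1, together with granzymes. The ileum mucosa holds many T cells between and below the epithelial cells, and the liver holds resident T cells and natural killer cells in its sinusoids.

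Messenger RNA was sequenced from the ileum and liver of weaned crossbred piglets after 28 days on 1 of 4 diets. The diets were the basal control diet, the basal diet with a phytogenic feed additive (PFA, a blend built on essential oils), a diet with heated, oxidized rapeseed oil (OO), and the oxidized oil diet with the additive (OO + PFA). The oxidized oil was an extra ingredient: the control and PFA diets held the same kind of rapeseed oil fresh and in a far smaller share, and had less calculated energy. Effects of oxidation, oil amount and energy cannot be told apart. Ileum came from 5 control and 5 PFA piglets, and liver from 6 piglets of each of the 4 diets. The 10 ileum piglets also gave a liver library. All pigs of a diet shared a single pen, and effects of diet and pen cannot be told apart. Library sizes ran from 18772230 to 24338165 counts on genes in the ileum and from 18738055 to 42446834 in the liver. The OO + PFA liver of pig 77 was left out of the tests, which left 23 liver libraries. It had 36.6 multiple alignments per 100 counts on genes, where the other livers had 3.01 to 14.7, and 48.3% of its counts on its top 10 genes, where they had 23.8 to 34.8%. The study also left out an OO + PFA liver, for suspected RNA degradation, without giving its pig number, and pig 77 was taken to be that library. Each library came from a piece of whole tissue of a single pig. Libraries are named here by diet letter and pig number (C for control, P for PFA, OO for oxidized oil and OP for OO + PFA). Both tissues carried their own markers. The summed level of 9 enterocyte markers was 20126 to 30619 CPM (counts scaled to a common library size) in the ileum and 267 to 923 in the liver. The 10 hepatocyte markers summed to 102168 to 227288 CPM in the liver and 726 to 1816 in the ileum, where AHSG and TTR were at 0 in every library. Liver library titles came in 2 forms, PigLiv and PL, whose meaning is not stated. The PL form covered 2 control, 3 PFA, 3 OO and, without pig 77, 1 OO + PFA liver (OP-137).

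Several of the genes are neighbours in the pig genome (Sscrofa11.1, RefSeq annotation). CD3E (ENSSSCG00000040140, chromosome 9, 45619730 to 45633972), CD3D (ENSSSCG00000015093, 45640475 to 45644153) and CD3G (45645243 to 45656779) stand side by side within 37050 bases. CD3D is on the minus strand and CD3G on the plus strand, so that they start 1089 bases apart and point away from each other. CD8B (ENSSSCG00000008213, chromosome 3, 57968358 to 57986450) and CD8A (ENSSSCG00000008217, 57999228 to 58029768) are neighbours on the same strand, 12777 bases apart. CD247 (ENSSSCG00000006309, 83494266 to 83586887) and CD2 (ENSSSCG00000006736, 103963802 to 103976971) are both on chromosome 4. CD4 (ENSSSCG00000000687) lies on chromosome 5 from 63892129 to 63918547, and PRF1 (ENSSSCG00000010271) on chromosome 14 from 73515306 to 73520256.

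The 250 bases before the annotated start of 4 of these genes are shown because their levels behaved differently below. CD3E and CD2 were far higher in ileum than in liver and moved together between livers, PRF1 was higher in ileum by less, and CD4 differed little between the tissues. The windows are chr9:45619480-45619729 on the plus strand for CD3E, chr4:103976972-103977221 on the minus strand for CD2, chr14:73520257-73520506 on the minus strand for PRF1 and chr5:63918548-63918797 on the minus strand for CD4. Each reads 5′ to 3′ along its gene, and capitals mark letters of 5 short motifs found on either strand, each named for a family of factors active in T cells. The ETS motif is searched as AGGAAG and the RUNX motif as TGTGGT. For the LEF family the letters are CTTTGA, for the factor GATA3 they are AGATAA, and for E-box proteins they are CAGCTG.
CD3E: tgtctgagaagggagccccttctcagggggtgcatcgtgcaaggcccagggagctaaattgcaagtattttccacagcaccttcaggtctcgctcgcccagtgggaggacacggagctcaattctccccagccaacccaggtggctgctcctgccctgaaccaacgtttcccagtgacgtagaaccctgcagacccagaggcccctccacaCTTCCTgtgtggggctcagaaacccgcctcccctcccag
CD2: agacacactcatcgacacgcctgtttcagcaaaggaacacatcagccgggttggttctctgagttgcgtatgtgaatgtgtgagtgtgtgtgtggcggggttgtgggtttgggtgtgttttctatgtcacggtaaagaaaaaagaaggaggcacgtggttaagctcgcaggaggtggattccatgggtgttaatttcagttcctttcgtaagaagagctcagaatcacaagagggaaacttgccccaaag
PRF1: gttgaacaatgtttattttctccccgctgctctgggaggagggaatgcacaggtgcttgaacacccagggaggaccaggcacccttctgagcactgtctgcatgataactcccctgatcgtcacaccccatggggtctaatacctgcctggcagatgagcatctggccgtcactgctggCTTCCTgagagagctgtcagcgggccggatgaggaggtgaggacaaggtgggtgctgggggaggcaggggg
CD4: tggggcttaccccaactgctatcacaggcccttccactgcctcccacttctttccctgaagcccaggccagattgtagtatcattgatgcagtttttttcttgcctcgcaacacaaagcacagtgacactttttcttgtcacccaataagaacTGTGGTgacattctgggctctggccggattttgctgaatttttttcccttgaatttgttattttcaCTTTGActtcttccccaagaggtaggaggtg
The ETS letters were in the windows of 7 of the 10 genes and in 24.9% of the 19569 windows of protein-coding genes read the same way. CD3E and PRF1 held them at 1 place each, and CD2 held none of the 5 motifs. The CD4 window held the RUNX letters (14.0% of all windows) and the LEF letters (10.7%), and not the ETS letters. The letters for GATA3 (8.1% of all windows) were found upstream of CD3G and CD247, and those of the E-box (13.6%) upstream of none of the 10 genes. A match of letters is a description of the sequence and shows no binding.

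The ileum carried the receptor genes at high levels. Per kilobase of exon, CD2 (99.1 ± 17.1 CPM per kb, SD, n = 10), CD3E (95.7 ± 12.9) and CD3D (85.6 ± 18.5) stood at the top. CD8B (10.6 ± 4.11) and CD247 (10.2 ± 2.41) followed, then CD4 (5.87 ± 1.32), CD8A (5.64 ± 1.56) and PRF1 (4.04 ± 1.38). The top 3 did not differ by more than the SD between pigs, nor did CD8B from CD247 or CD4 from CD8A. Within pigs, CD2 was above CD3E in 5 of 10 and CD3E above CD3D in 8 of 10. CD8B was above CD247 in 4 of 10 pigs and CD4 above CD8A in 5 of 10. CD3D was above CD8B in 10 of 10 pigs. In the liver the order per kilobase was CD2 (9.90 ± 3.58, n = 23), CD3D (6.24 ± 2.34), CD3E (5.80 ± 2.28), CD4 (2.40 ± 0.523), CD247 (2.11 ± 0.587), CD8B (1.55 ± 0.626), PRF1 (1.03 ± 0.525) and CD8A (0.648 ± 0.292). Only CD2 over CD3D and CD3E over CD4 were steps larger than the SD between pigs there. Within pigs, PRF1 was above CD8A in 21 of 23 livers, CD8B above PRF1 in 18 and CD247 above CD8B in 17. CD4 was above CD247 in 16 of the 23 and CD3D above CD3E in 15. The CD8A value rests on an annotated exon length of 9234 bases, which makes its level per kilobase low beside CD8B. CD247 has the next longest at 5422 bases, beside 759 for CD3D and 1023 for CD2. Its place in the order thus rests on exon length too.

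The first comparison asked whether the additive changed these genes in the ileum. None of the 8 was called, and the 95% interval of each difference held 0. The 5 receptor and adhesion genes CD3D, CD3E, CD247, CD2 and CD4 had 95% intervals of the fold that lay between 0.613 (CD247) and 1.46 (CD3D). CD3E, the chain present in every T cell receptor complex, was at 114, 109, 114, 117 and 117 CPM in control pigs C-71, C-80, C-92, C-100 and C-110. It was at 125, 107, 152, 92.4 and 132 CPM in PFA pigs P-75, P-95, P-107, P-134 and P-138. The 5 controls lay close together (SD 3.33 CPM) and the PFA pigs spread on both sides of them (SD 22.9 CPM). The log2 fold change was 0.09 ± 0.13 (SE), with a 95% interval of the fold from 0.882 to 1.29 (edgeR quasi-likelihood test, adjusted p = 0.991).

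The other CD3 chains gave values on either side of 0. CD3D was at 57.4, 67.8, 54.5, 67.3 and 58.0 CPM in the controls and 55.8, 59.2, 96.8, 51.9 and 80.6 CPM in the PFA pigs, in the same order of pigs (log2 0.17 ± 0.17). CD247 was at 64.9, 60.9, 65.4, 77.8 and 36.6 CPM in the controls and 48.1, 48.9, 39.2, 49.3 and 63.6 CPM in the PFA pigs (log2 -0.29 ± 0.19, unadjusted p = 0.144 in the edgeR test). Both sets of groups overlapped. CD2, which binds CD58 on the partner cell, differed by 0.04 ± 0.15, and CD4 by 0.07 ± 0.21.

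The CD8 genes were set apart by a single pig. CD8A was at 68.6, 47.1, 39.9, 66.0 and 35.6 CPM in the controls and 46.2, 39.9, 49.7, 48.4 and 79.4 CPM in the PFA pigs. CD8B was at 18.2, 16.7, 14.5, 19.6 and 16.0 CPM in the controls and 15.6, 13.6, 12.1, 8.73 and 33.2 CPM in the PFA pigs. P-138 was the highest of the 10 pigs for both genes, and the other 4 PFA pigs were at or below 15.6 CPM of CD8B, where the controls had 14.5 to 19.6. The fitted differences were 0.03 ± 0.23 for CD8A and -0.03 ± 0.30 for CD8B. PRF1 was at 5.04 to 14.5 CPM in the controls and 6.39 to 14.0 CPM in the PFA pigs (log2 -0.07 ± 0.30).

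**Figure D1:**
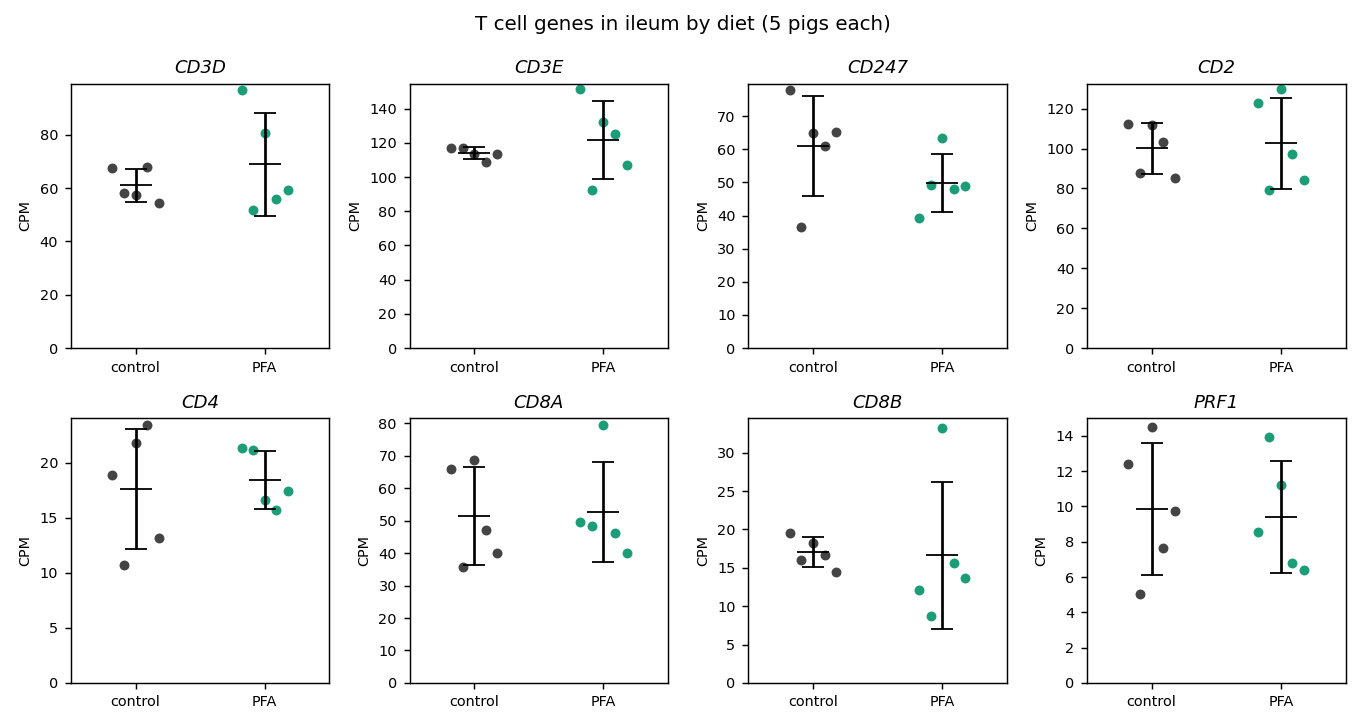
Levels of the 8 genes in the ileum by diet, in CPM on a linear axis from 0. Points are pigs (5 control, 5 PFA), bars the mean with SD. The control and PFA points overlap for every gene, and pig P-138 is the high PFA point of CD8A (79.4 CPM) and CD8B (33.2 CPM).

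None of the 8 genes was called in the ileum, where 0 of 14300 genes tested were called (0%) with edgeR. No member had an unadjusted p under 0.05, against 401 of all genes, and DESeq2 called 4 genes, 0 of them members. The members were 5 higher and 3 lower with a median log2 fold change of 0.04, beside 0.02 over all genes tested. Leaving out 1 library at a time moved this median from -0.10 (without P-138) to 0.10 (without C-71), and it was below 0 without P-138, C-92 or C-110. The wider lists gave the same picture of no call. Of 31 T cell signalling and identity genes 11 were higher and 20 lower, with 0 called, and THEMIS, a receptor signalling adaptor, came first by p (log2 0.41, unadjusted p = 0.101, edgeR). Of 26 tested cytotoxic and natural killer cell genes 19 were higher and 7 lower, led by the receptor gene CD244 (0.26, unadjusted p = 0.0687, edgeR). Of 19 homing and chemokine genes 12 were lower, and CX3CR1, a receptor of cytotoxic lymphocytes and monocytes, was the first (0.75, unadjusted p = 0.0117, edgeR).

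The markers of another lymphocyte type were uneven between pigs. The 11 B cell markers summed to 756 CPM in control pig C-80 and to 34.3 to 61.5 CPM in the other 9 ileum libraries. None of the 11 was at 0 in every library. In C-80 the 8 T cell genes summed to 436 CPM, where the other 9 pigs had 365 to 547 CPM. The wider lists stood at the ends of the range in this pig. Its T cell signalling and identity genes summed to 1435 CPM, the highest of the 10 (877 to 1306 in the others), and its cytotoxic and natural killer cell genes to 741 CPM, the lowest (749 to 1263). It had the lowest CD3E of the controls (109 CPM) and the highest CD4 of all 10 pigs (23.4 CPM). With the B cell marker mean as a covariate, 0 of the 8 genes were called, and none was called without C-80. The part of the B cell signal in the list values was not tested.

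The second comparison set the tissues against each other in the 10 pigs that gave both. Of the 8 genes, 7 were higher in the ileum and CD4 was not called. These values are CPM scaled over both tissues together, so they differ from those above. CD3E was at 61.9 to 104 CPM in the ileum and 5.45 to 17.98 CPM in the liver, and the ratio within a pig ran from 4.20 in C-80 to 18.4 in P-107. The fold over the groups was 8.27, with a 95% interval from 6.41 to 10.7 (edgeR, adjusted p = 1.36e-12). CD3D was 6.30-fold higher (34.7 to 66.1 against 3.93 to 13.9 CPM) and CD2 4.93-fold (53.0 to 87.9 against 8.51 to 23.1 CPM). For these 3 genes the ileum and liver ranges did not overlap, nor did those of CD8A (23.7 to 53.7 against 3.01 to 12.3 CPM). The share of all genes with separate ranges between the tissues was not counted.

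The other called genes differed by less. CD8A was 4.65-fold higher in the ileum (95% interval 3.30 to 6.56) and its partner CD8B 2.82-fold (2.03 to 3.93). CD247, at 24.4 to 53.1 CPM in the ileum and 10.2 to 24.5 CPM in the liver, was 2.15-fold higher (1.71 to 2.70). CD247 also signals for receptors of natural killer cells. PRF1 was 2.13-fold higher (1.47 to 3.10, adjusted p = 0.000641). All 7 were higher in the ileum in 10 of 10 pigs.

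CD4 is the helper T cell coreceptor, and in some species macrophages and other myeloid cells can also carry it. CD4 was at 7.15 to 16.2 CPM in the ileum and 7.69 to 17.1 CPM in the liver. It was higher in the ileum in 6 of 10 pigs, with a log2 difference of 0.08 ± 0.16 (edgeR, adjusted p = 0.647). Its interval of 0.838- to 1.34-fold leaves out the change of every other member. Beside it, 11 macrophage and monocyte markers, scaled over both tissues in the same 10 pigs, summed to 358 to 867 CPM in the ileum and 858 to 2415 CPM in the liver, and 9 of the 11 were called lower in the ileum, CD14 and MARCO first, and 1, ITGAM, higher. Their part in the CD4 value was not tested.

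**Figure D2:**
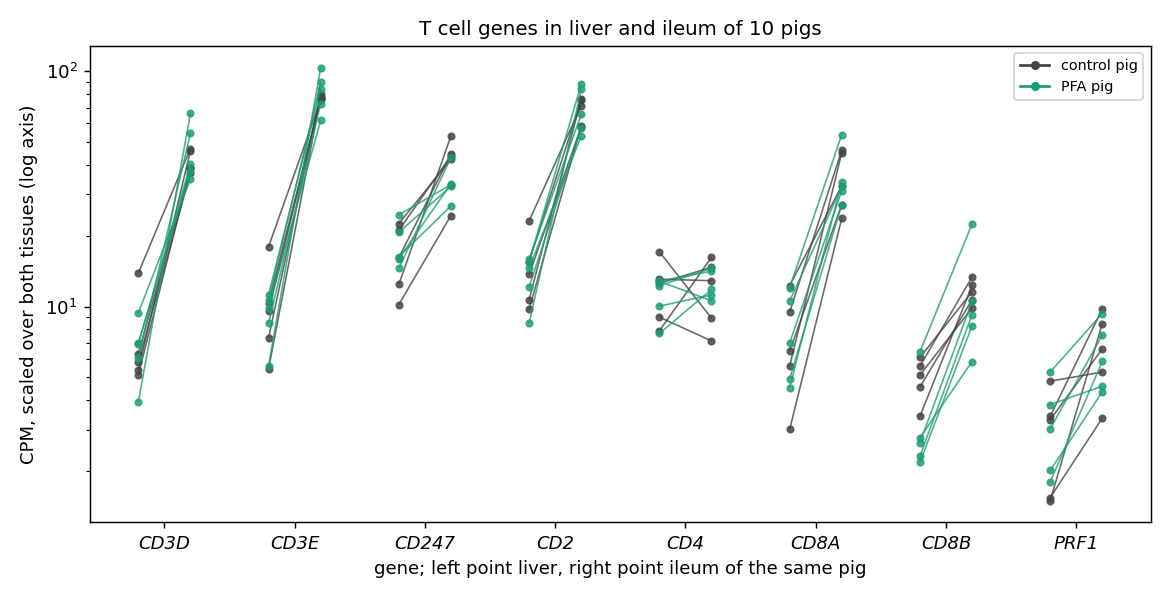
Levels of the 8 genes in liver (left point) and ileum (right point) of the same pig, joined by a line, in CPM scaled over both tissues on a log axis, for 5 control and 5 PFA pigs. Lines rise in 10 of 10 pigs for every gene but CD4, whose lines cross (6 of 10 higher in ileum).

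Between these tissues 78.1% of the 14982 genes tested were called and 40.6% were called higher in the ileum, so 7 of 8 members higher is to be read against that. The scaling matters here. Under TMM the median log2 difference of all genes was 0.05 and 6078 genes were called higher and 5621 lower in the ileum. With library totals alone, a scaling tried after the data were seen, the median was 1.17, 10923 were called higher and 2075 lower, and CD4 too was called higher (1.19, adjusted p = 7.2e-06). Relative to the median of all genes CD4 stayed close to 0 under both. Of 31 T cell signalling genes 25 were called higher in the ileum, IL2RA, the high-affinity interleukin chain of activated and regulatory T cells, by 2.98 on the log2 scale. Of 27 cytotoxic genes 18 were called higher, where the symbol GZMA, a granzyme, stands for 2 gene rows at 7.42 and 3.21, between which counting could split reads. The 4 called lower included the natural killer receptor NCR1 (-3.87 ± 0.33) and the transcription factor EOMES (-1.41 ± 0.27). Among 19 homing genes 14 were called higher, with CCL25 (6.99) and ITGAE (4.33), a gut chemokine and the integrin chain of T cells inside the epithelium. CX3CR1 (-4.41 ± 0.27), CCL21 (-2.50 ± 0.19) and S1PR1 (-1.39 ± 0.11) were called lower. In bulk tissue, fewer cells of a type and less RNA per cell cannot be told apart.

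The make-up of the member counts also differed between the tissues. For each 100 CD3E counts the ileum of the same 10 pigs had 9.17 to 22.9 CD4 counts (median 15.1) and their liver 43.9 to 218 (median 125.8). CD247 gave 25.8 to 66.4 counts per 100 CD3E counts in the ileum and 125 to 290.3 in the liver. PRF1 gave 4.31 to 15.1 and 20.3 to 53.3. The ranges of these 3 ratios did not overlap between the tissues, while CD8A gave 30.4 to 60.4 in the ileum and 55.2 to 113 in the liver. These ratios follow from the differences above and were not tested.

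The third set of comparisons asked how the 4 diets differed in the liver. No member was called with edgeR, and 7 of the 8 had their lowest group mean in OO + PFA (PRF1 had it in the controls). CD3E had a median of 6.84 CPM in the controls (3.70 to 12.4), 6.26 with PFA (3.86 to 7.48), 9.62 with OO (4.99 to 11.9), and 6.72, 3.91, 4.59, 3.85 and 6.41 CPM in the OO + PFA pigs OP-79, OP-98, OP-105, OP-126 and OP-137. CD2 had medians of 10.04 (6.63 to 15.9), 9.80 (5.85 to 10.8) and 13.7 CPM (5.73 to 17.7), and 10.1, 5.54, 7.22, 5.51 and 6.70 CPM with OO + PFA. CD8B had medians of 3.37 (2.38 to 4.19), 1.67 (1.4997 to 4.48) and 2.57 CPM (1.23 to 3.31), and 1.45, 2.41, 2.13, 1.25 and 1.38 CPM with OO + PFA. In OO, 5 of the 6 livers had more CD3E than any PFA or OO + PFA liver, and OO-102 was the low one for CD3E, CD2 and CD8A. In the controls, C-80 and C-85 were high for CD3E (12.4 and 11.3 CPM) and the other 4 were at 3.70 to 7.17 CPM.

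In the test across the 4 diets, CD2 (adjusted p = 0.1101), CD3E (0.124) and CD8B (0.127) came closest by edgeR, with unadjusted p of 0.0132, 0.0176 and 0.0183. The call rate over all genes was 3.66% (506 of 13831), and 3483 of all genes had an unadjusted p under 0.05. Without pig OO-102 CD2 passed (adjusted p = 0.0371, edgeR), and without pig P-138 CD8B did (0.0224). In the cytotoxic list the granule peptide gene GNLY was called by edgeR (adjusted p = 0.0199), and 1 of 28 T cell signalling genes was called as well. DESeq2's likelihood ratio test called 2 members, CD2 (adjusted p = 0.0488) and CD8B (0.0461), among 1776 genes. CD4 differed least, with group means from 7.04 ± 1.45 CPM (SD, n = 5, OO + PFA) to 7.77 ± 2.43 (n = 6, control) and an adjusted p of 0.939.

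**Figure D3:**
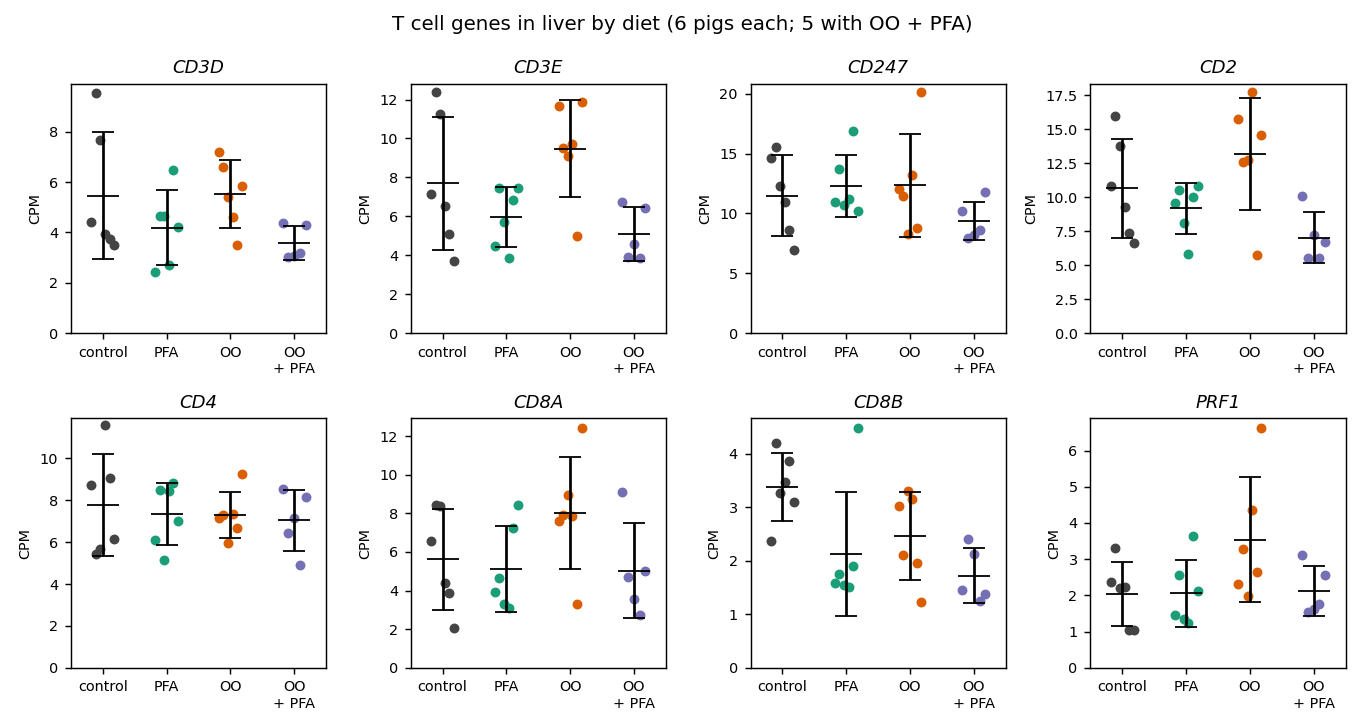
Levels of the 8 genes in the liver by diet, in CPM on linear axes from 0. Points are pigs (6 control, 6 PFA, 6 OO, 5 OO + PFA), bars the mean with SD. For CD3E and CD2 5 of the 6 OO points lie above every PFA and OO + PFA point, the CD4 groups share a range, and CD8B has its highest mean in the controls (3.38 CPM) and its highest point in pig P-138 (4.48 CPM).

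PFA alone against control gave 2 members higher and 6 lower, with a median log2 fold change of -0.17. Without C-110 or P-138 the median was -0.30, and without C-80 or P-95 it was -0.11 and -0.10. CD8B differed most (-0.66 ± 0.28, edgeR unadjusted p = 0.0254, adjusted p = 0.412), where 5 of the 6 PFA livers were at 1.4997 to 1.91 CPM, below every control, and P-138 was at 4.48 CPM, above every control. Without P-138 the value was -1.02, still not called (adjusted p = 0.289, edgeR). CD3D (-0.39 ± 0.26) and CD3E (-0.37 ± 0.26) had 95% intervals that held 0 (log2 -0.93 to 0.16 and -0.91 to 0.18). No gene of all 13831 was called (0%) by edgeR, 1522 had an unadjusted p under 0.05, and DESeq2 called 18, 0 of them members. GNLY, first by p in the cytotoxic list, was at -1.26 (unadjusted p = 0.00174, adjusted p = 0.277, edgeR).

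OO against control gave 6 members higher and 2 lower, median 0.20, and none was called, beside 2.71% of all genes (375 of 13831). Leaving out 1 library at a time moved the median from 0.09 (without C-110) to 0.35 (without C-80). It was 0.12 without C-100 and 0.31 without OO-102, and without OO-130 it was 0.11 with 4 members higher and 4 lower. PRF1 was the member furthest from 0 (0.78 ± 0.34, edgeR unadjusted p = 0.0287, adjusted p = 0.179). It ran from 1.98 to 6.61 CPM with OO (median 2.97) and from 1.04 to 3.32 CPM in the controls (median 2.23), and OO-130 was the highest. CD8A differed by 0.51 ± 0.35 and CD3E by 0.30 ± 0.26. Of the cytotoxic list, 22 of 25 were higher, with NKG7, a granule membrane protein of killer cells, at 0.79 (adjusted p = 0.117, edgeR). Of 28 T cell signalling genes 24 were higher, beside 7978 of all 13831 genes, and the 1 gene called in that list was lower. All 11 macrophage and monocyte markers were higher as well (median 0.40, 0 called).

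OO + PFA against control gave 7 members lower and 1 higher, median -0.44, with 0 called beside 5.08% of all genes (702 of 13831). CD8B was 1.96-fold lower (log2 -0.97 ± 0.30, edgeR adjusted p = 0.0546), and 4 of the 5 OO + PFA livers lay below every control while OP-98 (2.41 CPM) was just above the lowest control (2.38 CPM). In this comparison the groups did not overlap for 1245 of 13831 genes, while they overlapped for every member. CD8B passed the threshold with DESeq2 (adjusted p = 0.015), with RLE size factors (0.0492) and with these diets fitted alone (0.012). DESeq2 and the fit of these diets alone also called more of all genes than the main fit, with the counts given below. CD8B also passed without pig P-138 (0.0235), OO-74 (0.0488), OO-97 (0.0446) or OO-130 (0.0378), none of which belongs to either diet compared. Fits without 1 library called 191 to 1127 of all genes, where the main fit called 702, and the CD8B calls are to be read against that. CD3D (-0.61 ± 0.28), CD2 (-0.60 ± 0.26) and CD3E (-0.59 ± 0.28) were alike in size, with adjusted p of 0.199, 0.163 and 0.213 (edgeR). CCL25 was the one gene of the 3 pathway lists that was called (higher, 0.82, adjusted p = 0.046). With all 24 livers fitted, the left-out OO + PFA liver included, 4 members were lower and 4 higher than control (median -0.0461).

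OO + PFA against OO, the effect of the additive under the oil challenge, had all 8 members lower and a median of -0.65, beside -0.02 over all genes, of which 7401 of 13831 were lower. CD2 was 1.88-fold lower (log2 -0.91 ± 0.26, 95% interval of the log2 value from -1.44 to -0.37) and CD3E 1.86-fold (-0.89 ± 0.28, from -1.48 to -0.31). Neither was called, with unadjusted p of 0.0018 and 0.0043 and adjusted p of 0.337 and 0.39 (edgeR). No gene was called in this comparison (0% of 13831) by edgeR, 1176 had an unadjusted p under 0.05, and DESeq2 called 31, 0 of them members. PRF1 (-0.72 ± 0.35), CD8A (-0.67 ± 0.37) and CD3D (-0.62 ± 0.28) were lower by similar amounts, CD8B (-0.53 ± 0.30) and CD247 (-0.40 ± 0.22) by less, and CD4 was at -0.04 ± 0.20. All 5 OO + PFA livers lay under the OO mean for 6 of the genes, but no member had separate groups, against 0.774% of all genes that did, and at least 1 OO liver lay within the OO + PFA range for each. Without OO-102 the values were -1.06 for CD2 and -1.02 for CD3E (adjusted p = 0.0865 and 0.144, edgeR). With pig 77 kept, the median was -0.29, CD3E was at -0.29 and 7 of 8 were lower.

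**Figure D4:**
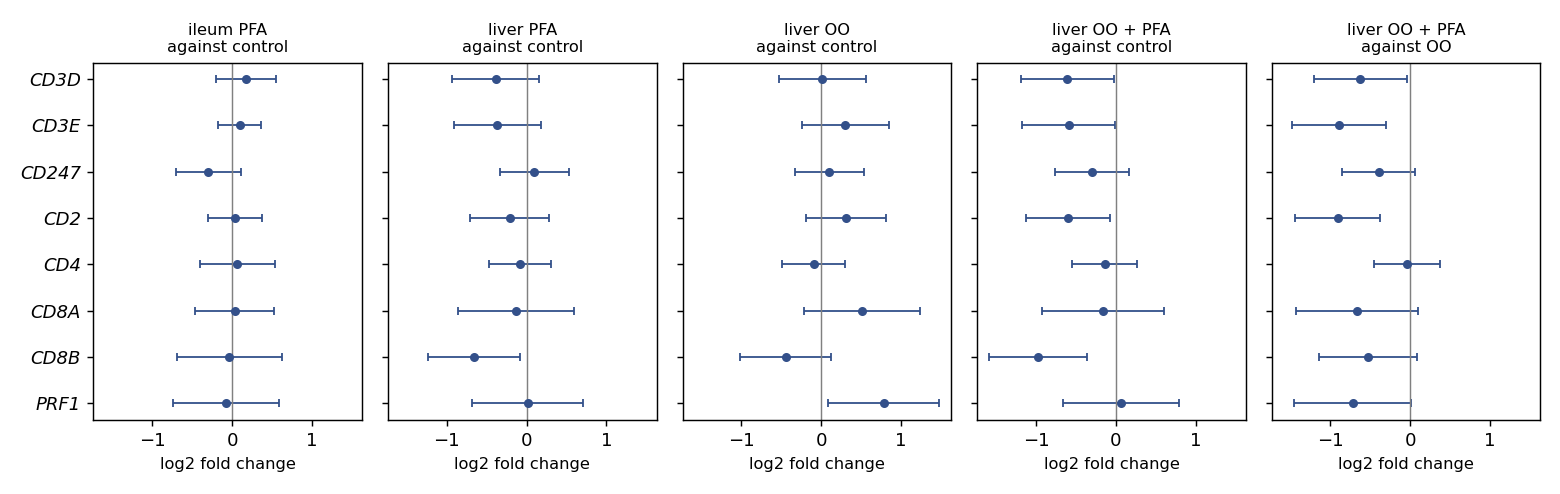
Log2 fold changes of the 8 genes in 5 comparisons, with 95% intervals from edgeR's quasi-likelihood fit as bars and a line at 0. In OO + PFA against OO all 8 points are left of 0 and the intervals of CD3D, CD3E and CD2 leave out 0 without adjustment, while in the ileum all 8 intervals hold 0.

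The lists around the members also held more lower than higher genes in that comparison. Of 28 T cell signalling genes 26 were lower, 14 with an unadjusted p under 0.05, and the median was -0.55. The kinase gene FYN was the first of the lower ones (-0.42, unadjusted p = 0.0064, edgeR). Of 25 cytotoxic genes 24 were lower, 13 with an unadjusted p under 0.05, median -0.62, with GNLY (-1.35) and a GZMA row (-1.42) first. Of 18 homing and chemokine genes 14 were lower, with CXCR6 (-1.07), a receptor of liver-homing T cells, first by p. Lists of other cell types also held more lower than higher genes, with smaller medians than the T cell signalling and cytotoxic lists. Of 11 B cell markers 10 were lower (median -0.39), 2 with an unadjusted p under 0.05, and all 6 plasma cell markers (median -0.09) and 8 of 10 muscle and stroma markers (median -0.16) were lower, none with such a p. Of 11 macrophage and monocyte markers 7 were lower (median -0.06) and of 10 hepatocyte markers 6 (median -0.01). Of 5 enterocyte markers 3 were lower (median -0.10), as were 3 of 5 red blood cell markers (median -0.17). The 11 B cell markers summed to 18.6 to 32.5 CPM with OO and 17.8 to 23.8 CPM with OO + PFA, and their part in the members' values was not tested. No gene of these lists was called, and genes of 1 cell type in 1 set of livers do not count as separate observations. The interaction of oil and PFA, which asks whether the additive acted differently with and without the oil, had 6 members lower and 2 higher (median -0.51, and -0.34 without OO-130), and CD2 came first (-0.69 ± 0.35, edgeR unadjusted p = 0.0602). There, 0 of 13831 genes were called (0%) by edgeR and 1881 had an unadjusted p under 0.05, and DESeq2 called 150, 0 of them members. With all 24 livers fitted, the left-out OO + PFA liver included, the interaction had 4 members lower and 4 higher (median -0.0053). The lean to lower values in the interaction thus depended on leaving that liver out. The difference in PFA effect between ileum and liver had a 95% interval that held 0 for each member. It was furthest from 0 for CD8B (0.55 ± 0.45) and CD247 (-0.47 ± 0.31), with 0 of 14982 genes called (0%) by edgeR and by DESeq2 and 739 at an unadjusted p under 0.05.

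The form of the library title moved with several of these genes. With diet in the fit, PL livers were higher than PigLiv livers for CD3D (0.65 ± 0.15, edgeR adjusted p = 0.0438), which was called beside 0.745% of all genes. CD3E was at 0.51 ± 0.17, PRF1 at 0.53 ± 0.23, CD8A at 0.46 ± 0.25 and CD247 at 0.35 ± 0.14. CD2 was at 0.25 ± 0.18, CD4 at -0.08 ± 0.15 and CD8B at -0.22 ± 0.21, and none of these genes but CD3D was called. OO + PFA held the fewest PL livers, and the 2 high controls for CD3E, C-80 and C-85, were the 2 PL controls. With a term for the form, OO + PFA against OO kept all 8 members lower (median -0.53), with CD2 at -0.83 and CD3E at -0.75. Within PigLiv alone all 8 were lower (median -0.59) and within PL alone, with 1 OO + PFA liver, 7 of 8 (median -0.62). For OO + PFA against control the median was -0.22 within PigLiv and -0.85 within PL. For OO against control it was 0.50 within PigLiv and -0.16 within PL, and for PFA against control -0.08 and -0.68. The within-form fits were added after the data were seen.

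The last comparison asked which of the genes varied together between pigs, as log2 CPM centred on the diet means. In the liver (23 pigs) CD3E went with CD2 (Pearson r = 0.89, Spearman rho = 0.85), CD8A (0.87 and 0.87), CD3D (0.87 and 0.86), CD247 (0.71 and 0.73) and PRF1 (0.71 and 0.72). It did not go with CD8B (0.16 and 0.11) or CD4 (0.06 and 0.18). The permutation p of the first 3 was 1e-05, the smallest that 100000 permutations can give, for r and for rho, and that of CD247 and PRF1 was 0.00011 and 0.00017 for r. Adjusted over the 14 relations tested in both tissues these were 4.7e-05 for the first 3, 0.000385 for CD247 and 0.000476 for PRF1. Without the 2 livers farthest from the CD3E median r was 0.86 for CD2, 0.80 for CD8A, 0.86 for CD3D, 0.60 for CD247 and 0.70 for PRF1.

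Within the title forms the relation was not the same for all. Values were centred on the diet means within each form. OP-137, the only PL liver of OO + PFA, then equals its diet mean and adds nothing to r. The PL values rest on few livers of each diet. For CD2 r was 0.91 in the 14 PigLiv livers and 0.93 in the 9 PL livers, for CD8A 0.93 and 0.67, for CD247 0.69 and 0.85 and for PRF1 0.67 and 0.88. For CD3D it was 0.88 and 0.21, lower within PL. CD4, at 0.06 over both forms, gave 0.50 and 0.87 within them, and CD8B gave 0.43 and -0.48. All points share their library scaling.

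**Figure D5:**
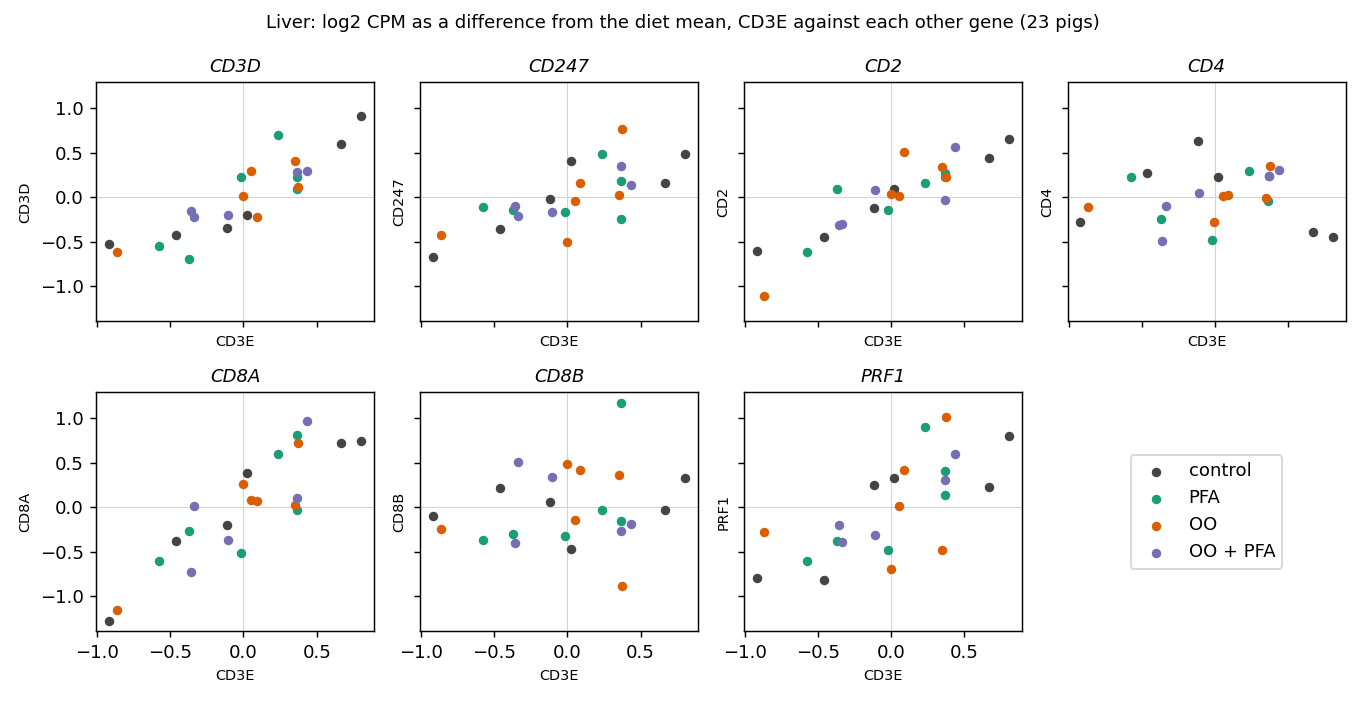
Log2 CPM in 23 livers as a difference from the diet mean, with CD3E on the x axis and each other gene on the y axis, coloured by diet. The points of CD2 (r = 0.89), CD8A and CD3D (both 0.87) lie along a rising line, and those of CD4 (0.06) and CD8B (0.16) do not.

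In the ileum (10 pigs) CD3E went with CD3D (r = 0.79, permutation p = 0.00672, adjusted p = 0.0134, and rho = 0.61, permutation p = 0.066) and with CD2 (r = 0.76, permutation p = 0.00558, adjusted p = 0.013, and rho = 0.77, permutation p = 0.0122). Without the 2 pigs farthest from the CD3E median these r values became 0.38 and 0.62 (adjusted permutation p of 0.561 and 0.195). With fewer pigs over a narrower range of CD3E, this cannot show whether the relations rested on those pigs. The other ileum relations ran from -0.19 (PRF1) to 0.47 (CD8B) and none passed the adjustment.

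Outside the members, the genes closest to CD3E across the 23 livers were the T cell kinase gene LCK (r = 0.93) and the lymphocyte transcription factor gene IKZF3 (0.93), followed by 3 rows without a symbol in the table used, among them ENSSSCG00000029596 and ENSSSCG00000015094 (both 0.91). In the 10 ileum libraries they were CASP8 (0.975), IMMP1L, UBE2D3, CD200R1 and ALKBH6 (all 0.92). These are the highest of 13823 and 14292 correlations and are given as a description.

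CD8A and CD8B, whose products pair on classical cytotoxic T cells while CD8A also forms a pair with itself on natural killer cells and other T cells, came apart in single livers. For each 100 CD8A counts there were 9.91 to 151 CD8B counts in the liver (median 40.0) and 18.1 to 45.0 in the ileum (median 33.9). Pig OO-130 had the highest CD8A (12.4 CPM), PRF1 (6.61 CPM) and CD247 (20.2 CPM) of the 23 livers and the lowest CD8B (1.23 CPM, 21 counts). Its library also had the most multiple alignments of the 23 (14.7 per 100 counts on genes) and the fewest counts on genes (19839171). The part of these in its values was not tested. Pig P-138 was the highest for CD8B in both of its tissues. These libraries were paired by the pig number in the title, and the correlation of their deviations was -0.18, the lowest of all pairs.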

How the data were processed

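RNA-seq counts per Ensembl gene were analysed for 10 ileum and 24 liver samples. Per the labels and methods, the authors aligned paired reads with STAR 2.6.1d to Sscrofa11.1, counted them per gene with HTSeq and deposited raw counts. Libraries were stranded TruSeq, and the strand option of the counting is not given in the sources used here. The submitters' notes also name DESeq2 1.22.2. Whole-series tables held the same counts (0 of 34 columns differed), and single-sample counts were used. HTSeq's summary rows were left out, and its row for reads on no gene held 6.53 to 20.6% of the gene and summary counts together.

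Symbols came from a gene name table (14857 of 25880 genes), positions, exon lengths and upstream bases from RefSeq on Sscrofa11.1. Genes passing filterByExpr were tested with edgeR 4.0.16 (R 4.3.3) by the quasi-likelihood test after TMM scaling, two-sided, with Benjamini-Hochberg adjustment over all genes tested, and called at an adjusted p of 0.05 or less. All 8 members passed the filter in every comparison. Standard errors are |log2 fold change| over the square root of F. Log2 CPM used a prior count of 2. The 4 liver diets shared 1 fit of 23 libraries, and tissues were compared in 20 libraries of 10 pigs. Pairs of libraries of the same pig came from the pig numbers in the titles. The correlation of their deviations ran from -0.18 in P-138 to 0.46, above 0.1 in 8 of 10 pigs. It was best with the pig's own number in 6 of them. Correlations used 100000 two-sided permutations. Python 3.11.15, numpy 2.4.6 and pandas 2.3.3 handled tables. The fits and the permutation test were checked on simulated data. Alternatives were DESeq2 1.42.0, RLE factors, filters, a fold of 2, a GC correction and a B cell covariate. Further ones were a title form term, all 24 livers, the pig as a block and leaving out each library. The GC correction was void, as it also left out the genes without a GC value. Replicates are single pigs.

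Text names all members with a row, called genes of 3 pathway lists in the diet comparisons, first genes of those lists by p, and other cell types as counts and sums. In the tissue comparison only examples of called genes are named. The members and lists were chosen with earlier results of these data known. Some list genes and 1 upstream sequence that these rules would name are not reported here.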

Additional observations from a re-analysis of the deposited data

Results flagged for a closer look

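Pig P-138 of the PFA group had high CD8 levels. In its ileum CD8A was at 79.4 CPM and the next PFA pig at 49.7 CPM, and CD8B was at 33.2 CPM and the next at 15.6 CPM. In its liver CD8B was at 4.48 CPM and the next PFA liver at 1.91 CPM. In these 3 groups the gap to the next pig was more of the group's range than Dixon's 95% critical value allows. With 48 groups of 5 or 6 pigs examined, chance alone passes about 1 in 20 of them, or 2.4 groups. The ileum and liver of P-138 were paired by title number, and the correlation of their deviations was -0.18.

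The OO + PFA liver of pig 77, which entered no test, had 5 of the 8 genes above every control liver when scaled with all 24 livers. It also had the most multiple alignments (36.6 per 100 counts on genes) and the largest share of counts on its top 10 genes (48.3%) of the 24 livers, and the part of these in its values was not tested. CD3E was at 21.3 CPM against a control maximum of 12.2 CPM, CD247 at 28.0 against 15.3 CPM, CD2 at 16.2 against 15.8 CPM, CD8A at 13.7 against 8.36 CPM and PRF1 at 5.18 against 3.29 CPM. CD3E, CD247 and CD8A were above every other liver of any diet. CD4 (8.05 CPM) and CD8B (3.85 CPM) lay within the range of the controls, as did CD3D (9.31 CPM). These values rest on 55 counts for CD8B to 400 counts for CD247.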

How the results depend on the processing

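The count of called members stayed at 0 in the ileum and in the liver comparisons of PFA with control, OO with control, OO + PFA with OO and the interaction, under every alternative run. It changed in 3 of the comparisons. Across the 4 diets DESeq2 called 2 and the fits without 1 library called 0 to 1. For OO + PFA against control it was 1 with DESeq2, with RLE factors, with the GC correction and with the 2 diets alone, and 0 to 1 without 1 library. Between tissues it was 7, also with the pig as replicate block, which changed no member call (11720 of all genes called), and 8 with library totals alone. Of 14 relations with CD3E 7 passed, and 5 without the 2 farthest libraries.

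The GC correction is void as a check, and its values carry no weight. It was run only on genes with a GC value (11342 of 14300 in the ileum and 11024 of 13831 in the liver). The set of genes thus changed together with the correction. Small log2 values changed sign. With the GC correction these were, in the ileum, CD2 -0.041, CD8A -0.027, CD8B 0.001 and PRF1 0.15, PRF1 -0.39 in OO + PFA against control, and CD4 -0.11 in the interaction. Within PL livers they were CD247 -0.020, CD4 0.42 and PRF1 -0.14 (PFA against control), CD3D -0.57, CD3E -0.26, CD247 -0.12, CD2 -0.20 and CD4 0.38 (OO against control), CD4 0.52 and PRF1 -0.14 (OO + PFA against control), CD4 0.14 (OO + PFA against OO), and CD3D 0.26, CD3E 0.18 and CD4 -0.28 (interaction). Within PigLiv livers they were CD2 0.041, CD8A 0.30 and PRF1 -0.064 (PFA against control), CD8A 0.28 (OO + PFA against control) and CD8B -0.24 (interaction). With a title form term they were PRF1 -0.067 (PFA against control), CD3D 0.011 and CD4 -0.0049 (interaction). With the 2 diets alone they were PRF1 -0.0086 (PFA) and CD3D -0.022 (OO), and CD3D was -0.014 (OO) with DESeq2 and with RLE factors. With all 24 livers they were CD3E 0.0125, CD247 0.11 and CD8A 0.20 (OO + PFA against control), CD247 0.0135 (OO + PFA against OO), and CD3D 0.092 and CD3E 0.078 (interaction). Without the 2 farthest libraries r was 0.16 for CD247 and 0.31 for PRF1 in the ileum and -0.081 for CD4 in the liver. The causes were not tested.

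Leaving out 1 library at a time turned the sign of these. In the ileum CD2 ran from -0.0625 to 0.12, CD4 from -0.067 to 0.19, CD8A from -0.16 to 0.16, CD8B from -0.44 to 0.13 and PRF1 from -0.26 to 0.11. For PFA against control in the liver CD247 ran from -0.015 to 0.20, CD4 from -0.16 to 0.070, CD8A from -0.33 to 0.021 and PRF1 from -0.22 to 0.20. For OO against control CD3D ran from -0.0755 to 0.25, CD247 from -0.092 to 0.21 and CD4 from -0.18 to 0.054. CD4 ran from -0.22 to 0.0105 and PRF1 from -0.12 to 0.25 for OO + PFA against control, and CD4 from -0.12 to 0.061 for OO + PFA against OO. In the interaction CD4 ran from -0.11 to 0.14 and CD8B from -0.014 to 0.50, and between tissues CD4 from -0.020 to 0.23. For the PFA effect between tissues CD3D ran from -0.032 to 0.56, CD3E from -0.10 to 0.39, CD2 from -0.068 to 0.30, CD4 from -0.10 to 0.39, CD8A from -0.38 to 0.12 and PRF1 from -0.56 to 0.046.

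Counts over all genes moved more. Across the 4 diets they were 1776 with DESeq2, 853 with the GC correction, 1113 with all 24 livers, 157 and 44 within the PigLiv and PL forms and 297 to 1450 without 1 library. For OO against control they were 1079, 873, 224, 114, 8 and 167 to 1325 in the same order, 194 with the 2 diets alone and 153 at a fold of 2. For OO + PFA against control they were 1370 with DESeq2, 1530 with all 24 livers, 1690 with the 2 diets alone, 453 at a fold of 2, 237 and 12 within the forms and 191 to 1127 without 1 library. For OO + PFA against OO they were 31 with DESeq2, 11 with the GC correction, 1 with all 24 livers, 18 within PL and 0 to 7 without 1 library. Those of the interaction were 150 with DESeq2, 47 within PL, 6 with the GC correction, 2 with RLE factors or no filter and 0 to 5 without 1 library.

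Depth limited the liver values of CD8B, PRF1 and CD8A, which had as few as 21, 25 and 66 counts in a library, where counting error adds to the spread between pigs.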

Other observations

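The share of the member counts also varied with diet in the liver, as a description without a test. For each 100 CD3E counts the median CD247 count was 168 in the controls, 217 with PFA, 128 with OO and 184 with OO + PFA. The median CD4 count was 144, 122, 76.1 and 127 in the same order of diets. The CD247 ranges of OO (91.2 to 177) and OO + PFA (151 to 225) overlapped, as did the CD4 ranges (61.2 to 134 and 127 to 165). For each 100 CD8A counts the median CD8B count was 64.4 in the controls, 43.4 with PFA, 38.4 with OO and 45.2 with OO + PFA, and the control range, from 36.1 to 151, held the other medians.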
